A study of Homo sapiens with 9 samples.

Results

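In cultured AC16 cells treated with the triterpenoid CDDO-Me, transcripts were followed for 39 genes of the extracellular matrix outside the collagens: glycoproteins, elastic fibre proteins, proteoglycan cores, basement membrane proteins, the enzymes that hydroxylate and cross-link matrix proteins, matrix proteases and the protease inhibitors of the TIMP family. The genes were taken as a list of names, with earlier results of these data known. A share of calls above that of all genes is therefore a description, not an independent test. All 39 were found among the 58299 genes of the deposited count table, and 37 had enough reads to be tested. AC16 is a proliferating human line made by fusing adult ventricular cells with SV40-transformed fibroblasts. Its cells had 100 nM CDDO-Me for 72 h (3 libraries), 100 nM CDDO-Me for 24 h (3 libraries), or the vehicle, 0.1% DMSO, for 72 h (3 libraries). The sample titles shorten CDDO-Me to CDDO, and the treatment labels were followed. A vehicle group of 24 h was not analysed here, and both length of exposure and treatment therefore separate the 24 h group from DMSO. Culture time, which the treatment labels do not give, may differ too. Nothing in the labels says that the replicates came from separate cultures, so p-values measure no more than how far these samples differ from each other, a spread that may be technical.

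CDDO-Me (bardoxolone methyl) binds KEAP1, which frees the transcription factor NRF2 to switch on detoxifying and antioxidant genes. The extracellular matrix is the protein mesh that cells secrete around themselves. Fibronectin and other glycoproteins link cells to fibres, fibrillins and fibulins build elastic fibres, lysyl oxidases join collagen and elastin chains, laminins and nidogen form basement membranes, and metalloproteases with their TIMP inhibitors set how fast the mesh is broken down. In the heart, fibroblasts make most of this matrix, and its excess stiffens the tissue.

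Total counts ran from 16898977 to 27910031 per library, and 3 counts, the limit that a count of 0 allows, equalled 0.110 to 0.175 CPM (CPM, read counts per 1e6 after TMM scaling of library size; counting error only). CDDO-Me 24 h replicate 3 stood apart: its biological coefficient of variation against replicates 1 and 2 was 20.9 and 19.9%, against 6.38% between those, 2.73 to 3.31% among the 72 h libraries and 7.79 to 13.9% among the DMSO libraries. Against the 72 h libraries CDDO-Me 24 h replicate 3 had 12.8 to 13.5%, where 24 h replicates 1 and 2 had 14.3 to 15.7%. DMSO replicate 1 had 12.1 and 13.9% against DMSO replicates 2 and 3, which had 7.79% between them. Results are given with and without CDDO-Me 24 h replicate 3. Leaving it out keeps only replicates 1 and 2 at 24 h. It also removes the library that stood apart, so smaller SE and p-values in that fit follow in part from this choice. The NRF2 target NQO1 had 3386, 3306 and 3353 CPM at 72 h, 1686, 1782 and 2169 CPM at 24 h, and 433, 419.5 and 495 CPM in DMSO, so each treated library lay above each DMSO library. The series title calls the cells cardiomyocytes, yet of 12 heart muscle markers 11 averaged under 1 CPM and 5 (MYH6, MYH7, MYL2, RYR2 and NKX2-5) had no count in any library. All 9 fibroblast markers were tested, with a summed level of 3403 to 3426 CPM at 72 h, 3365 to 3578 CPM at 24 h and 3430.3 to 3629.9 CPM in DMSO, most of it from VIM and P4HB, which did not pass. Among the 9, FAP and PDGFRA passed as lower at 72 h against DMSO, and THY1 and PDGFRB had 72 h libraries below every DMSO library without passing. FAP had 22.8, 21.3 and 20.9 CPM at 72 h, 49.6, 52.8 and 23.1 CPM at 24 h, and 46.9, 50.6 and 60.8 CPM in DMSO (log2 -1.28 ± 0.28 at 72 h, adjusted p 0.0294). PDGFRA had 18.8, 21.4 and 19.4 CPM at 72 h, 35.1, 35.9 and 19.3 CPM at 24 h, and 30.5, 35.2 and 35.0 CPM in DMSO (log2 -0.76 ± 0.19, adjusted p 0.0376). Of 6 endothelial markers 5 averaged under 1 CPM, and TEK, the other, passed as lower at 72 h, with 7.41, 6.74 and 6.89 CPM at 72 h, 8.85, 9.02 and 10.7 CPM at 24 h, and 14.1, 11.6 and 11.9 CPM in DMSO (log2 -0.83 ± 0.14, adjusted p 0.00267). The part of these markers in the results was not tested.

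Per kilobase of counted gene length, SPARC and FN1 had the highest levels of the 39. That length was 17315 bases for FN1, 12847 for DCN and 4831 for SPARC. It is the length of the counted gene, not of the transcripts present, so levels of different genes compare only roughly. SPARC, a collagen-binding matricellular protein, averaged 369 ± 2.84 CPM per kb at 72 h, 404 ± 68.3 at 24 h and 471 ± 35.3 in DMSO (SD, n = 3 each). FN1, fibronectin, averaged 227 ± 3.36 CPM per kb at 72 h, 380.0 ± 67.3 at 24 h and 416 ± 101 in DMSO. In DMSO the intervals of these overlapped, and the next levels were those of THBS1 (148 ± 17.5), SERPINH1 (144 ± 10.4) and LOXL2 (139 ± 2.14), which also lay within each other's spread. At the other end, ELN, the gene of elastin, and the interstitial collagenase gene MMP1 were at or near the counting limit and were not tested. ELN had 0, 0 and 0 counts at 72 h, 2, 1 and 0 counts at 24 h, and 0, 1 and 4 counts in DMSO. MMP1 had 0, 1 and 0 counts at 72 h, 0, 1 and 0 counts at 24 h, and 0, 0 and 1 counts in DMSO. DMSO replicate 3 alone had more than 3 counts of ELN, and no library had more than 1 of MMP1. The 39 genes together took 1.43 ± 0.00628% of all counts at 72 h, 1.87 ± 0.267% at 24 h and 2.03 ± 0.246% in DMSO. DMSO replicate 1 lay highest, with 2.31%, against 1.87 and 1.90% in DMSO replicates 2 and 3. FN1 alone made up 27.0 to 27.5% of the counts of these genes at 72 h, 32.9 to 36.8% at 24 h and 32.3 to 39.1% in DMSO.

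**Figure D1:**
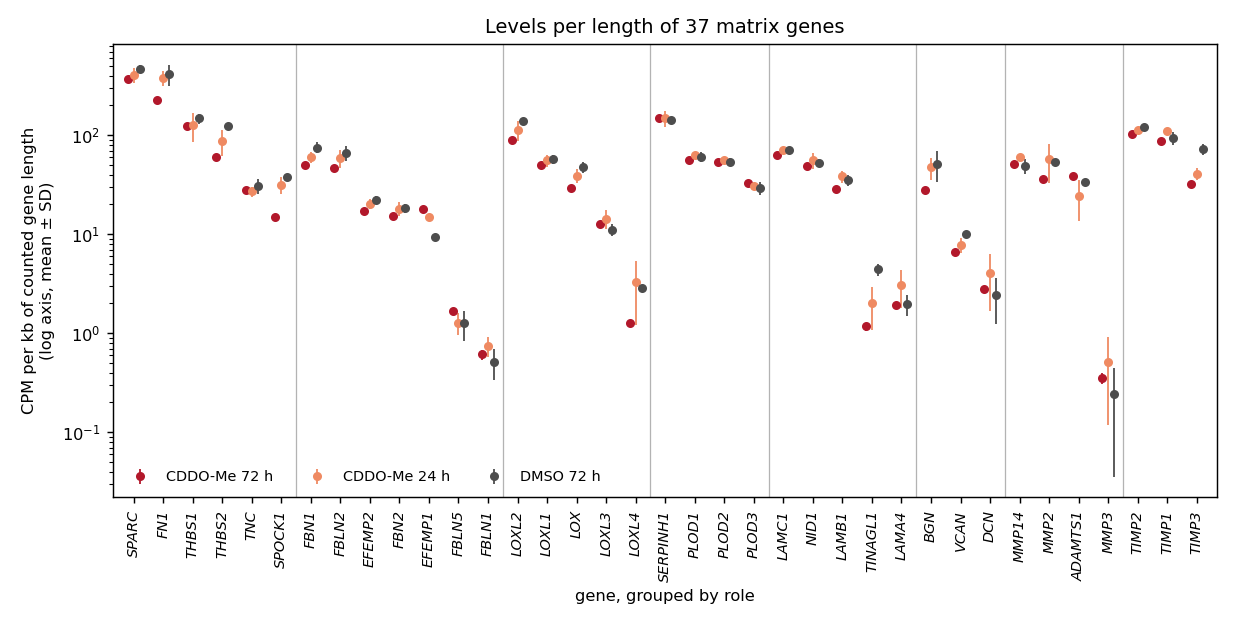
Levels of the 37 tested matrix genes as CPM per kilobase of counted gene length (log axis, mean ± SD of 3 libraries), grouped by role, for CDDO-Me 72 h, CDDO-Me 24 h and DMSO 72 h. SPARC and FN1 sit highest and MMP3 lowest; the DMSO means run from 0.242 for MMP3 to 471 for SPARC.

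In cells given CDDO-Me for 72 h, set against DMSO of equal duration, 10 of the 37 tested genes fell and 1 rose. SPOCK1, TIMP3, THBS2, TINAGL1, FN1, LOX, LOXL2, VCAN, FBN1 and EFEMP2 were lower, and EFEMP1 was higher. That is 29.7% of these genes past an adjusted p of 0.05 (edgeR's quasi-likelihood test with Benjamini-Hochberg adjustment over 14965 genes), where 6.02% of all tested genes passed, 2.89% as higher and 3.13% as lower. The median log2 fold change of the 37 was -0.23, beside 0.00 over all tested genes. The 72 h and DMSO libraries did not overlap for 22 of the 37, 20 of them lower, where 30.7% of all tested genes were fully apart and 15.5% were apart as higher and 15.2% as lower. At an unadjusted p under 0.05, 18 of the 37 passed, where 18.6% of all tested genes did. DESeq2 called 14 of the 37, the same 11 and also SPARC, FBLN2 and BGN as lower, where it called 8.54% of the genes to which it gave an adjusted p. In these bulk samples, fewer cells of a type and less RNA per cell cannot be told apart. CDDO-Me 24 h replicate 3 enters this comparison through the estimate of spread and the filter on low counts, and without it 19 genes were lower and 2 higher, where 12.9% of 15311 tested genes passed, 6.26% as higher and 6.62% as lower.

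**Figure D2:**
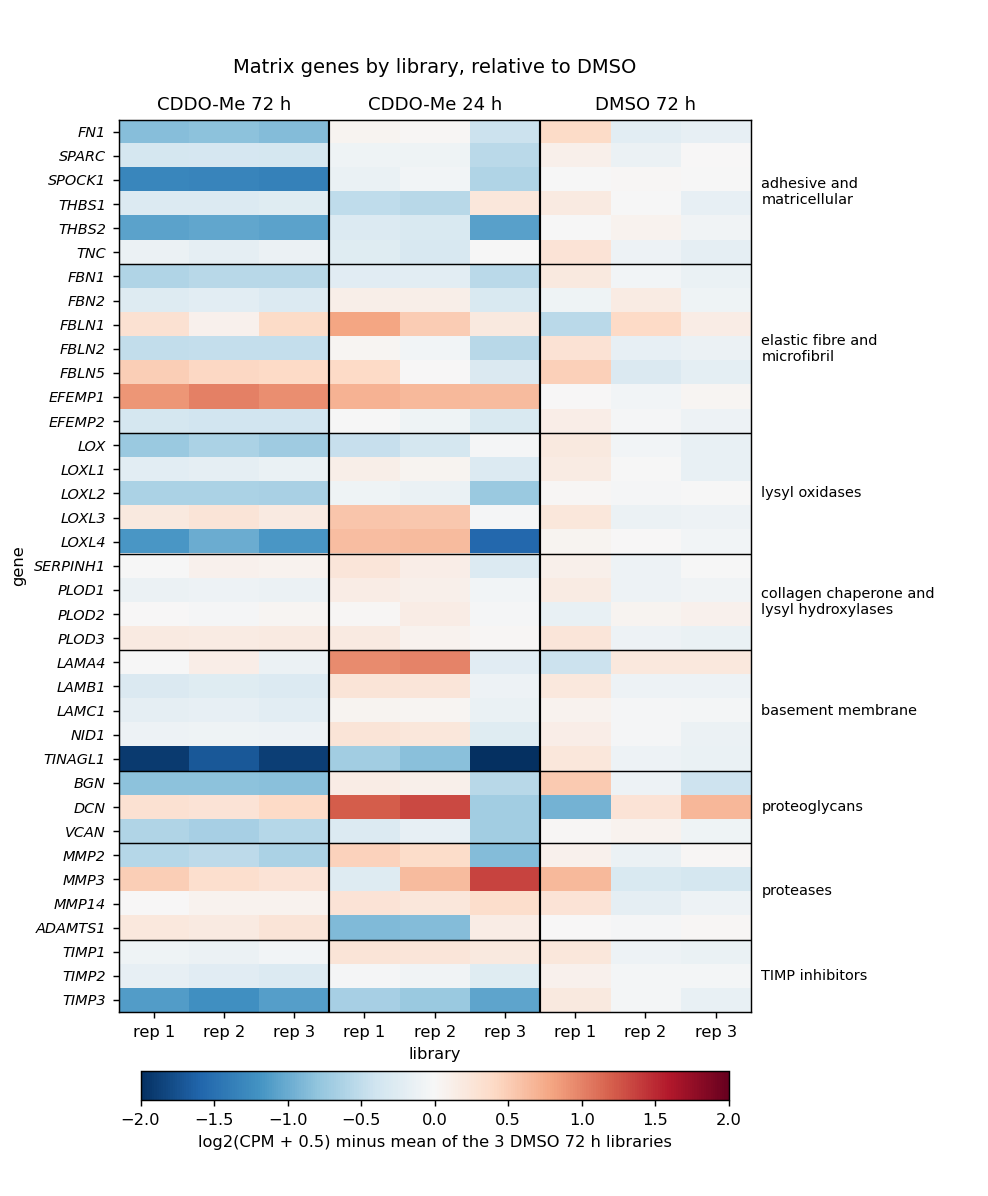
Colour shows log2(CPM + 0.5) of each of the 37 tested matrix genes in each of the 9 libraries, minus the mean of the 3 DMSO libraries, by role (colours end at 2 log2 units either way). The 72 h columns are alike and mostly blue, the EFEMP1 row is red in all treated libraries, and the third 24 h column differs from the other two for LOXL4, DCN, LAMA4, MMP2 and ADAMTS1.

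Among the adhesive and matricellular glycoproteins, 3 of 6 fell at 72 h. FN1 (ENSG00000115414, chromosome 2, 215360440 to 215436172, minus strand), the main cell-binding glycoprotein of provisional matrix, had 3932, 3982 and 3866 CPM at 72 h, 7322, 7182 and 5237 CPM at 24 h, and 9215, 6091 and 6283 CPM in DMSO. Its 72 h libraries lay below every DMSO library, and DMSO replicate 1 lay highest. The log2 fold change was -0.87 ± 0.16 (SE here and below), 1.83-fold lower, with an adjusted p of 0.00570. Over 20 alternative fits, which include leaving out each library, it ran from -0.98 to -0.66. SPOCK1 (ENSG00000152377, chromosome 5, 136975298 to 137598379, minus strand), testican-1, a secreted proteoglycan, had 94.3, 93.3 and 91.0 CPM at 72 h, 213, 225 and 154 CPM at 24 h, and 232, 238 and 233 CPM in DMSO. The spread within the 72 h and DMSO groups was small beside the gap between them, and the level at 72 h was 2.52-fold lower (log2 -1.33 ± 0.11, adjusted p 9.62e-06). THBS2 (ENSG00000186340, chromosome 6, 169215780 to 169254044, minus strand), thrombospondin 2, a matricellular protein that restrains angiogenesis, had 377, 387 and 379 CPM at 72 h, 655, 644 and 373 CPM at 24 h, and 791, 836 and 758 CPM in DMSO. It was 2.09-fold lower at 72 h (log2 -1.06 ± 0.17, adjusted p 0.00444), and all 6 treated libraries lay below all 3 DMSO libraries.

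The related THBS1, SPARC and TNC did not pass at 72 h by edgeR, though SPARC did by DESeq2. SPARC had 1781, 1800.0 and 1773 CPM at 72 h, 2150.4, 2131 and 1569.6 CPM at 24 h, and 2439, 2099 and 2289.8 CPM in DMSO, and its 72 h libraries lay below DMSO by a log2 fold change of -0.35 ± 0.11 (adjusted p 0.0778). THBS1, thrombospondin 1, which can activate latent TGF-beta, had 1116, 1114 and 1142 CPM at 72 h, 949, 916 and 1580.2 CPM at 24 h, and 1521, 1330.3 and 1202 CPM in DMSO. Its highest value of all was in CDDO-Me 24 h replicate 3 and its lowest in replicates 1 and 2 of that group. TNC, tenascin C, an anti-adhesive glycoprotein of remodelling tissue, had 273, 262 and 272 CPM at 72 h, 251, 237 and 296 CPM at 24 h, and 357, 277 and 263 CPM in DMSO, with overlapping 72 h and DMSO groups. Without CDDO-Me 24 h replicate 3, SPARC and THBS1 passed as lower at 72 h (-0.35 ± 0.06, adjusted p 5.27e-04; and -0.26 ± 0.07, adjusted p 0.0168).

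**Figure D3:**
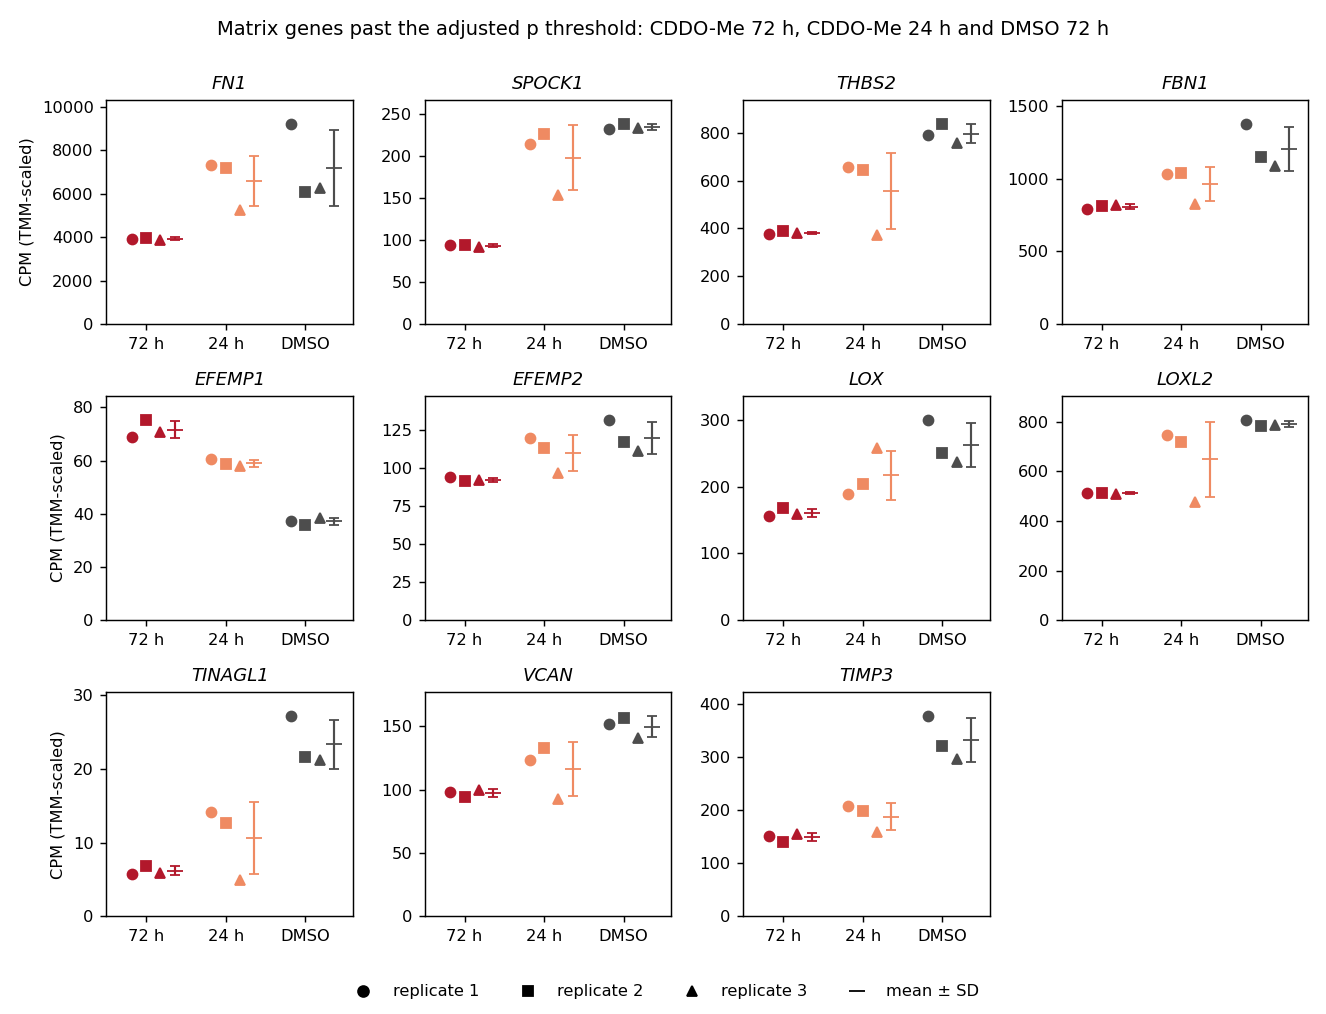
CPM in each library of the 11 matrix genes past the threshold in at least 1 comparison, with the mean ± SD of each group of 3, for CDDO-Me 72 h, CDDO-Me 24 h and DMSO 72 h (axes start at 0). The 72 h points lie below the DMSO points in 10 panels and above them for EFEMP1, where they reach 75.2 CPM against at most 38.4 CPM in DMSO.

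Of 7 tested elastic fibre genes, 2 fell and 1 rose at 72 h. EFEMP1 (ENSG00000115380, chromosome 2, 55865967 to 55924139, minus strand), fibulin 3, a short fibulin of the matrix, was the only one of the 37 genes to pass as higher against DMSO in either comparison of the 9-library fit. It had 68.7, 75.2 and 70.9 CPM at 72 h, 60.5, 58.7 and 57.9 CPM at 24 h, and 37.4, 35.8 and 38.4 CPM in DMSO. The 3 groups did not overlap, and the level was 1.93-fold higher at 72 h (log2 0.95 ± 0.08, adjusted p 6.66e-06) and 1.59-fold higher at 24 h (log2 0.67 ± 0.08, adjusted p 3.03e-04). Its paralog EFEMP2 (ENSG00000172638, chromosome 11, 65866441 to 65873592, minus strand), fibulin 4, which brings lysyl oxidase to elastin, had 93.7, 91.2 and 91.8 CPM at 72 h, 119, 113 and 96.6 CPM at 24 h, and 131, 117 and 111 CPM in DMSO. EFEMP2 was 1.30-fold lower at 72 h (log2 -0.38 ± 0.09, adjusted p 0.0220), but it missed the threshold when any single 72 h library, or DMSO replicate 1 or 2, was left out (adjusted p up to 0.109). FBN1 (ENSG00000166147, chromosome 15, 48408306 to 48645849, minus strand), fibrillin 1, the backbone of microfibrils, had 789.7, 815 and 819 CPM at 72 h, 1029.9, 1038 and 829 CPM at 24 h, and 1377, 1149 and 1089.6 CPM in DMSO. Every treated library of FBN1 lay below every DMSO library, with a 1.49-fold lower level at 72 h (log2 -0.58 ± 0.10, adjusted p 0.00353). Over the 20 alternative fits the log2 fold change of FBN1 ran from -0.64 to -0.47.

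The other elastic fibre genes did not pass by edgeR, though FBLN2 did by DESeq2. FBLN2, fibulin 2, had 225, 226 and 228 CPM at 72 h, 324, 305 and 215 CPM at 24 h, and 386, 282 and 292 CPM in DMSO, a log2 fold change of -0.50 ± 0.15 at 72 h (adjusted p 0.0786; without CDDO-Me 24 h replicate 3, -0.50 ± 0.10, adjusted p 0.00339). FBN2, fibrillin 2, had 201, 207 and 199 CPM at 72 h, 262, 261 and 195 CPM at 24 h, and 227, 270.3 and 228 CPM in DMSO, with 72 h below DMSO in every library (log2 -0.25 ± 0.11, adjusted p 0.213; without CDDO-Me 24 h replicate 3, -0.25 ± 0.07, adjusted p 0.0177). FBLN1 and FBLN5, fibulins 1 and 5, were low. FBLN1 had 4.60, 3.87 and 4.86 CPM at 72 h, 6.64, 5.37 and 4.20 CPM at 24 h, and 2.33, 4.90 and 4.06 CPM in DMSO. FBLN5 had 8.72, 8.22 and 8.12 CPM at 72 h, 8.15, 6.13 and 4.86 CPM at 24 h, and 8.63, 4.90 and 5.22 CPM in DMSO. The groups overlapped for both.

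Of the 5 lysyl oxidases, copper enzymes that start collagen and elastin cross-links, 2 fell at 72 h. LOX (ENSG00000113083, chromosome 5, 122063195 to 122078360, minus strand) had 156, 168 and 159 CPM at 72 h, 189, 204 and 258 CPM at 24 h, and 299.7, 251 and 236 CPM in DMSO. The 72 h libraries lay below all others, and the level was 1.63-fold lower than in DMSO (log2 -0.70 ± 0.11, adjusted p 0.00173). LOXL2 (ENSG00000134013, chromosome 8, 23297189 to 23425328, minus strand), which oxidises collagen IV in basement membranes, had 514, 514 and 507 CPM at 72 h, 749, 720.4 and 476 CPM at 24 h, and 807, 784 and 788 CPM in DMSO. It was 1.55-fold lower at 72 h (log2 -0.63 ± 0.13, adjusted p 0.0118), and missed the threshold when any single 72 h library was left out (adjusted p up to 0.0577). The other 3 did not pass. LOXL1, an elastin cross-linker, had 179, 183 and 190.0 CPM at 72 h, 225, 215 and 172 CPM at 24 h, and 232, 206 and 187 CPM in DMSO, with 72 h and DMSO overlapping. LOXL3 had 55.3, 57.9 and 54.7 CPM at 72 h, 71.1, 70.0 and 47.5 CPM at 24 h, and 56.4, 44.2 and 44.6 CPM in DMSO, and reads of HTRA2, which shares 14.3% of its exon bases on the opposite strand, cannot be told from its own. LOXL4 had 4.41, 5.04 and 4.38 CPM at 72 h, 16.4, 16.6 and 3.22 CPM at 24 h, and 10.9, 10.5 and 10.1 CPM in DMSO. At 72 h LOXL4 lay below DMSO in every library by a log2 fold change of -1.19 ± 0.53, with an adjusted p of 0.288 (without CDDO-Me 24 h replicate 3, -1.19 ± 0.13, adjusted p 4.00e-06).

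The genes that fold and hydroxylate collagen chains inside the cell did not pass in any comparison of the 9-library fit, 0 of 4. SERPINH1, the collagen chaperone HSP47, had 706, 751 and 739 CPM at 72 h, 834, 778 and 582 CPM at 24 h, and 761, 659 and 702 CPM in DMSO. PLOD1, PLOD2 and PLOD3 are the lysyl hydroxylases that prepare collagen for cross-linking. PLOD1 had 294, 300.3 and 295 CPM at 72 h, 355, 346 and 309.7 CPM at 24 h, and 361, 299.6 and 305 CPM in DMSO. PLOD2 had 412, 404 and 421 CPM at 72 h, 417, 454 and 405 CPM at 24 h, and 372, 429 and 436 CPM in DMSO. PLOD3 had 186, 185 and 186 CPM at 72 h, 186, 173 and 167 CPM at 24 h, and 195, 153 and 149.6 CPM in DMSO. The 72 h and DMSO groups overlapped for all 4, and their log2 fold changes at 72 h ran from -0.12 to 0.16, with SE of 0.08 to 0.11. At an unadjusted p under 0.05 none of the 4 passed at 72 h or 24 h against DMSO, and PLOD1 did for 72 h against 24 h. By DESeq2, none passed in any comparison.

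In the basement membrane group 1 of 5 fell at 72 h. TINAGL1 (ENSG00000142910, chromosome 1, 31576485 to 31587686, plus strand), a matrix glycoprotein that binds integrins and growth factor receptors, had 5.77, 6.84 and 5.93 CPM at 72 h, 14.1, 12.7 and 4.97 CPM at 24 h, and 27.1, 21.7 and 21.2 CPM in DMSO. Of the 37 genes it moved furthest down at 72 h, with a log2 fold change of -1.92 ± 0.32, 3.77-fold lower (adjusted p 0.00664), and its 24 h libraries lay below DMSO too. LAMB1 and LAMC1, the beta 1 and gamma 1 chains of most laminins, had 72 h libraries below every DMSO library but did not pass. LAMB1 had 230.5, 239 and 234 CPM at 72 h, 338, 335 and 263 CPM at 24 h, and 328, 263 and 263 CPM in DMSO. LAMC1 had 531, 533 and 518 CPM at 72 h, 626, 617 and 545 CPM at 24 h, and 633, 587 and 581 CPM in DMSO. Their log2 fold changes at 72 h were -0.28 ± 0.11 and -0.19 ± 0.08 (adjusted p 0.150 and 0.196; without CDDO-Me 24 h replicate 3, 0.0171 and 0.0331). NID1, nidogen 1, which ties laminin to collagen IV, had 287, 290.1 and 288 CPM at 72 h, 368, 360.3 and 259 CPM at 24 h, and 336, 304 and 285 CPM in DMSO, and its 72 h and DMSO groups overlapped. LAMA4, the alpha 4 chain of mesenchymal laminins, had 22.0, 24.3 and 20.4 CPM at 72 h, 43.2, 44.7 and 18.8 CPM at 24 h, and 16.4, 25.7 and 25.9 CPM in DMSO, with overlap at 72 h.

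Of the proteoglycan cores 1 of 3 fell. VCAN (ENSG00000038427, chromosome 5, 83471465 to 83582303, plus strand), versican, a large hyaluronan-binding proteoglycan, had 98.2, 93.7 and 100.0 CPM at 72 h, 123, 133 and 92.6 CPM at 24 h, and 152, 157 and 141 CPM in DMSO. It was 1.54-fold lower at 72 h (log2 -0.62 ± 0.11, adjusted p 0.00296). BGN, biglycan, a small leucine-rich proteoglycan, had 68.7, 68.8 and 68.1 CPM at 72 h, 135, 130.1 and 82.6 CPM at 24 h, and 176, 113 and 90.9 CPM in DMSO. The 72 h libraries of BGN differed little from each other and lay below DMSO by a log2 fold change of -0.88 ± 0.26, but the DMSO libraries were spread and the gene did not pass by edgeR (adjusted p 0.106), though it did by DESeq2. DCN, decorin, the collagen-binding relative of biglycan, had 34.9, 34.3 and 37.6 CPM at 72 h, 66.3, 71.2 and 17.3 CPM at 24 h, and 14.5, 34.5 and 45.0 CPM in DMSO, and its groups overlapped.

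Of the protease inhibitors, TIMP3 fell, and TIMP1 and TIMP2 did not pass in the fit of 9 libraries. TIMP3 (ENSG00000100234, chromosome 22, 32801701 to 32863043, plus strand), the TIMP that stays bound to the matrix, had 151, 141 and 154 CPM at 72 h, 207, 197 and 159 CPM at 24 h, and 376, 321 and 296 CPM in DMSO. All treated libraries lay below all DMSO libraries. The level was 2.23-fold lower at 72 h (log2 -1.16 ± 0.11, adjusted p 1.53e-05) and 1.77-fold lower at 24 h (log2 -0.82 ± 0.11, adjusted p 6.85e-04). TIMP2 had 604, 577 and 559.7 CPM at 72 h, 669, 647 and 572 CPM at 24 h, and 720.4, 657 and 658 CPM in DMSO, with 72 h below DMSO (log2 -0.23 ± 0.08, adjusted p 0.128; without CDDO-Me 24 h replicate 3, -0.22 ± 0.06, adjusted p 0.0144). TIMP1 had 135, 132 and 138 CPM at 72 h, 170.3, 170.1 and 165 CPM at 24 h, and 168, 133 and 131 CPM in DMSO, so its 72 h libraries overlapped DMSO and lay below every 24 h library. Per kilobase, TIMP3 averaged 32.3 ± 1.56 CPM at 72 h and 72.0 ± 8.90 in DMSO, TIMP2 103 ± 3.96 at 72 h and 120.4 ± 6.45 in DMSO, and TIMP1 87.7 ± 1.78 at 72 h and 93.5 ± 13.5 in DMSO (SD, n = 3 each).

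The proteases did not pass at 72 h, 0 of 4 tested by edgeR, and none had an unadjusted p under 0.05. MMP14, a membrane-bound collagenase that activates MMP2, had 220.4, 228 and 229 CPM at 72 h, 264, 257 and 278 CPM at 24 h, and 264, 193 and 204 CPM in DMSO, so its 72 h libraries lay below every 24 h library and overlapped DMSO. MMP2, gelatinase A, had 177, 184 and 170.1 CPM at 72 h, 366, 341 and 145 CPM at 24 h, and 282, 243 and 269 CPM in DMSO, with 72 h below DMSO in every library (log2 -0.58 ± 0.31, adjusted p 0.383; without CDDO-Me 24 h replicate 3, -0.58 ± 0.07, adjusted p 5.52e-06). ADAMTS1, which cleaves versican and aggrecan, had 273, 268 and 283 CPM at 72 h, 128, 129 and 262 CPM at 24 h, and 238, 231 and 238 CPM in DMSO. For ADAMTS1 72 h lay above DMSO in every library, by 0.22 ± 0.26 (adjusted p 0.727; without CDDO-Me 24 h replicate 3, 0.22 ± 0.06, adjusted p 0.0120). MMP3, stromelysin 1, had 5 to 52 counts per library. By DESeq2 none of these proteases passed at 72 h.

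**Figure D4:**
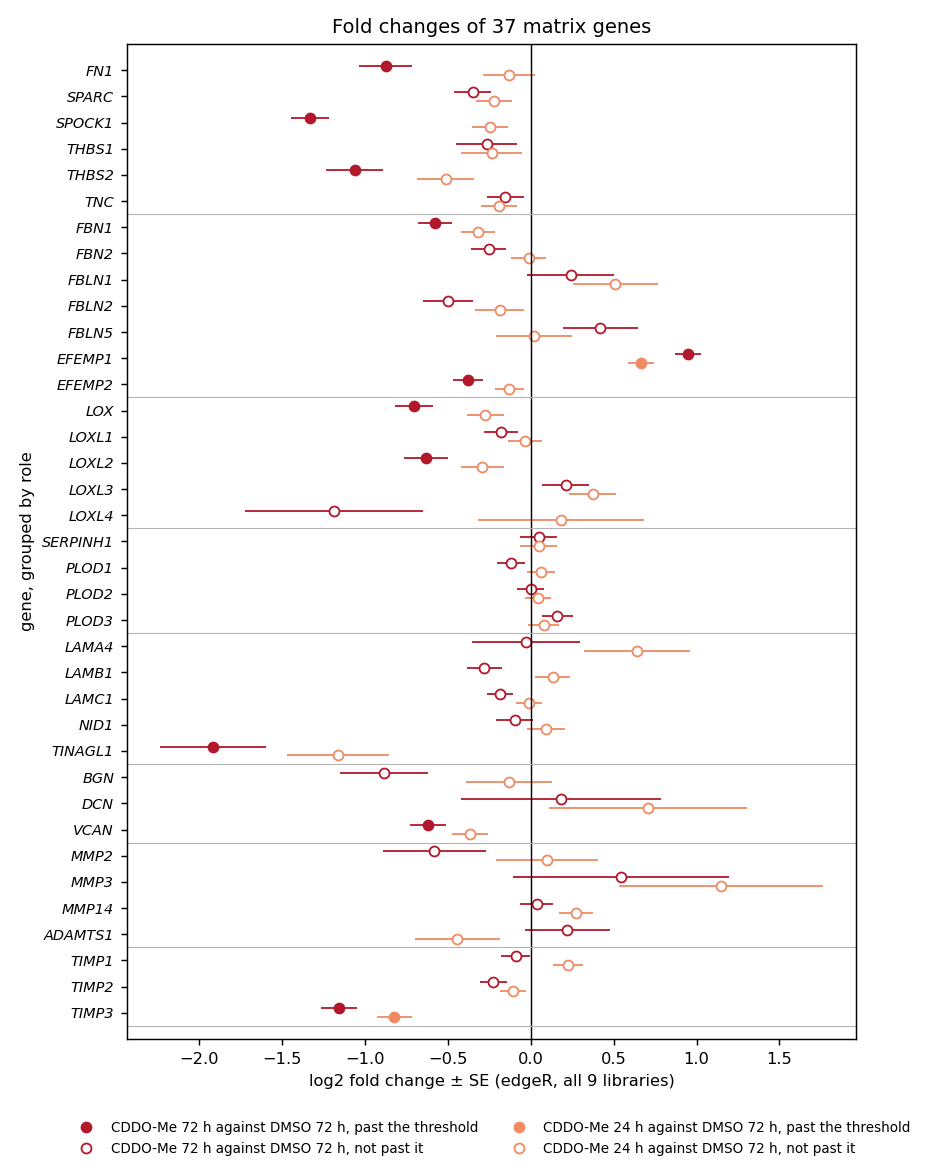
Log2 fold change ± SE of the 37 tested matrix genes against DMSO, for CDDO-Me 72 h (dark) and CDDO-Me 24 h (light), from the fit of all 9 libraries; filled points passed an adjusted p of 0.05. Points at 72 h lie left of 0 for 27 of 37 genes, from -1.92 (TINAGL1) to 0.95 (EFEMP1).

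RefSeq start windows (250 bases before and 50 after the start, GRCh38.p14) were matched by symbol for 29 of the 39 genes. They were searched on both strands for TGACNNNGC, the core of the antioxidant response element that NRF2 binds, TGANTCA, the AP-1 site, whose letters can overlap that core, and GGAATG, the TEAD site. The core was found in 2 of 29 windows (6.9%), in FBLN2 and FBLN5, and in 13.3% of 35116 windows of the same length. The AP-1 site was in 0 of 29, and in 7.71% of all windows. The TEAD site was in 5 of 29 (17.2%), SPARC, THBS1, THBS2, FBN1 and TINAGL1, and in 14% of all. No match overlapped another. A match is a description of letters, not a bound site. The windows printed here belong to genes called at 72 h with the smallest adjusted p among those that have one: TIMP3 (chr22:32801455-32801754, plus strand), VCAN (chr5:83471494-83471793, plus strand) and FBN1 (chr15:48644921-48645220, minus strand). Their RefSeq starts lie 4, 279 and 879 bases inside the outer end of the counted gene. LOX had a smaller adjusted p (0.00173) than VCAN and FBN1, but its start lies 1186 bases inside, and its window is not printed. That window is among the 29 searched and holds none of these motifs. Capitals mark the RefSeq start base, and in FBN1 also the TEAD letters, 58 to 53 bases before the start. TIMP3 and VCAN hold none of these motifs in this window.
TIMP3: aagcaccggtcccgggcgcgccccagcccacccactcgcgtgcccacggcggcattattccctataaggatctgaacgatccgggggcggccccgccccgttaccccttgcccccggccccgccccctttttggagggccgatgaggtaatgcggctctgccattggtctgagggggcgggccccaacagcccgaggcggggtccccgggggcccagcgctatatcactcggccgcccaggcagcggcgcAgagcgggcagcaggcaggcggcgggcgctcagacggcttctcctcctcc
VCAN: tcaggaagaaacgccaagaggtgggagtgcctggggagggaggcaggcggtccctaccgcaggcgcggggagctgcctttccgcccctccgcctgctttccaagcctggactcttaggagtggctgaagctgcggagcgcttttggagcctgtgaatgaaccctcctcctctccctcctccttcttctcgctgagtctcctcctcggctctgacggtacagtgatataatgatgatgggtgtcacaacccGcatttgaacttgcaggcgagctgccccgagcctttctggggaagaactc
FBN1: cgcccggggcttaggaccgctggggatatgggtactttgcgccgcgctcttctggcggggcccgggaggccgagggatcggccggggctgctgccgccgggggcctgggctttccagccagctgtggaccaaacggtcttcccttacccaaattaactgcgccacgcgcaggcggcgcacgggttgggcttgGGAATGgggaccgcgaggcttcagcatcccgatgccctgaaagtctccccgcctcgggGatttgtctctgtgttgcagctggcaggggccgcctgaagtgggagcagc

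After 24 h of CDDO-Me, against the 72 h vehicle, 1 of the 37 genes fell, TIMP3, and 1 rose, EFEMP1, with the values given above. That is 5.41% of these genes, where 2.15% of all tested genes passed, 0.969% as higher and 1.18% as lower. The median log2 fold change was -0.01, beside 0.01 over all tested genes, and 8 of 37 had groups fully apart, 7 of them lower, where 13.5% of all tested genes were apart, 6.73% as higher and 6.74% as lower. At an unadjusted p under 0.05, 12 of the 37 passed, where 12.8% of all tested genes did. DESeq2 called 5 of the 37, adding THBS2, TINAGL1 and VCAN as lower, where it called 4.13% of all genes with an adjusted p. Of the 4 tested proteases, it gave an adjusted p to 3. The 24 h group was split: 30 of 37 genes had a value in replicate 3 nearer to the 72 h mean than to the mean of replicates 1 and 2 (81.1%, beside 63.7% of all tested genes; distances in log2(CPM + 0.5)). Replicate 3 was below the mean of replicates 1 and 2 for 31 of the 37, with a median difference of -0.43. The matching share of all tested genes was not counted. The median of the 37 relative to the DMSO mean stood at 0.06 in replicate 1, 0.05 in replicate 2 and -0.27 in replicate 3, beside -0.21 to -0.24 in the 72 h libraries. In DMSO replicates 1, 2 and 3 this median stood at 0.14, -0.05 and -0.10. Over all tested genes the median stood at 0.013, 0.010 and -0.00077 in 24 h replicates 1, 2 and 3, and at 0.0019 to 0.0052 in the 72 h libraries.

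The widest gaps were in LOXL4, DCN, TINAGL1, MMP2 and LAMA4, all lower in replicate 3, and in MMP3 and ADAMTS1, higher there. Replicates 1 and 2 agreed closely for LOXL4 (16.4 and 16.6 CPM), above every DMSO library, while replicate 3 had 3.22 CPM, below them. MMP2 was arranged in the same way, and ADAMTS1 in the opposite way, with replicates 1 and 2 below every DMSO library and replicate 3 above. For LAMA4 replicates 1 and 2 lay above every DMSO library and replicate 3 among them. Without replicate 3, 12 of the 37 passed at 24 h, 6 higher and 6 lower, where 10.8% of all tested genes passed, 5.71% as higher and 5.11% as lower. In that fit the 24 h group held only replicates 1 and 2, which lowers the spread of genes with a wide gap. Of these 12, only EFEMP1 and TIMP3 passed in the fit of 9 libraries, where ADAMTS1 had an adjusted p of 0.544 and THBS1 of 0.671. LOXL4 (0.65 ± 0.13, adjusted p 0.00294), LAMA4 (0.95 ± 0.15, adjusted p 0.00107), LOXL3 (0.54 ± 0.10, adjusted p 0.00137), MMP2 (0.41 ± 0.07, adjusted p 0.00107) and NID1 (0.24 ± 0.07, adjusted p 0.0351) were then higher, with EFEMP1. ADAMTS1 (-0.88 ± 0.06, adjusted p 6.98e-08), TINAGL1 (-0.80 ± 0.14, adjusted p 8.71e-04), THBS1 (-0.54 ± 0.08, adjusted p 2.82e-04), LOX (-0.42 ± 0.09, adjusted p 0.00402) and THBS2 (-0.29 ± 0.06, adjusted p 0.00507) were then lower, with TIMP3. FN1 stood at 0.01 ± 0.16 without replicate 3 and -0.13 ± 0.16 with it, and passed in neither fit.

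NEAT1, a long RNA kept in the nucleus, was arranged like LOXL4 at 24 h, with 44.1, 36.2 and 36.8 CPM at 72 h, 126, 139 and 30.6 CPM at 24 h, and 88.3, 58.7 and 46.5 CPM in DMSO. Of the other RNAs in the same list, MALAT1, MEG3 and the scarce KCNQ1OT1 were also lower in replicate 3 than in replicates 1 and 2. OIP5-AS1 showed little gap, with 92.4, 105.7 and 89.1 CPM at 24 h. HMOX1, an NRF2 target, was higher in replicate 3, with every treated library above DMSO: 822, 747 and 880.1 CPM at 72 h, 146, 146 and 645 CPM at 24 h, and 22.1, 23.6 and 25.8 CPM in DMSO. The other NRF2 targets looked at were also higher in replicate 3 than in replicates 1 and 2. In HMOX1 and NQO1 replicate 3 lay below every 72 h library, and in GCLM, TXNRD1, SRXN1 and SLC7A11 above every one. TXNRD1 had 2275, 2342 and 2198 CPM at 72 h, and 1239.5, 1349 and 3162 CPM at 24 h. Whether RNA quality or the strength of the drug response has a part in the gap of CDDO-Me 24 h replicate 3 was not tested.

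**Figure D5:**
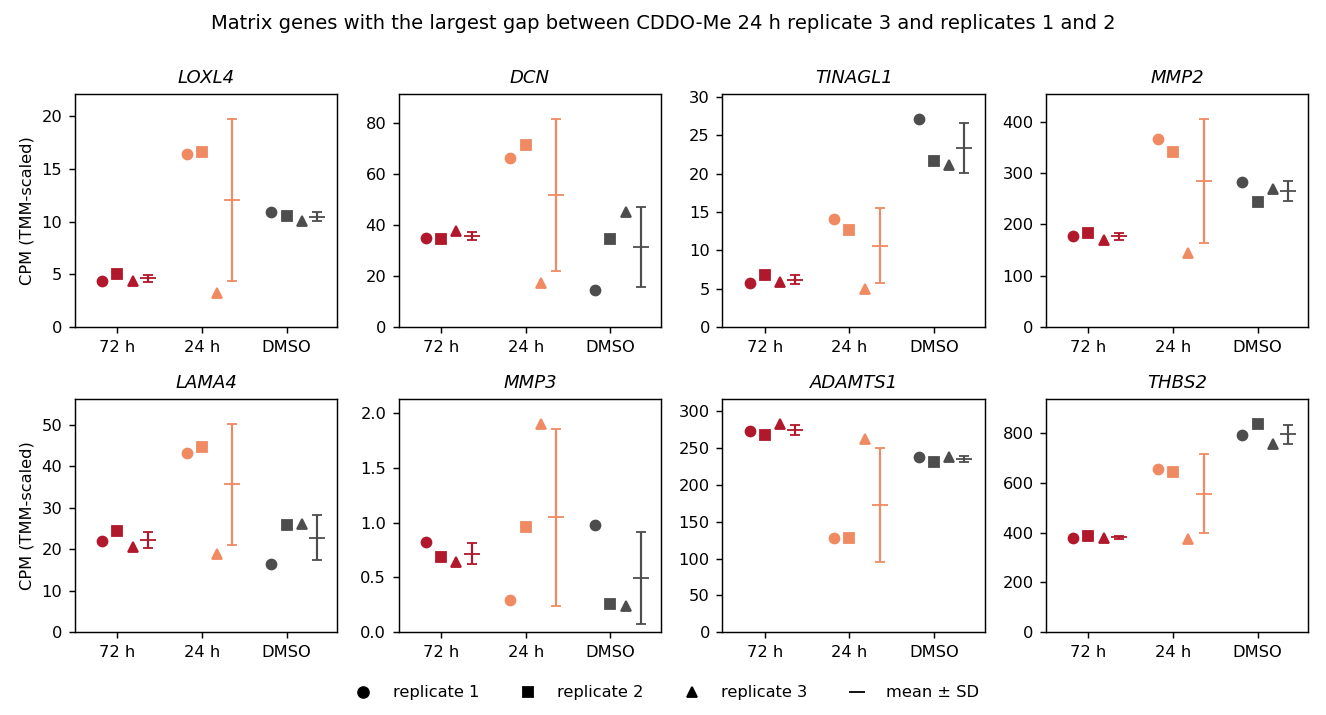
CPM in each library, with the mean ± SD of each group of 3, for the 8 matrix genes with the largest gap between CDDO-Me 24 h replicate 3 (triangle) and replicates 1 and 2 (axes start at 0; MMP3 is near the counting limit). For LOXL4, MMP2, LAMA4, ADAMTS1 and THBS2 the triangle at 24 h lies near the 72 h points.

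Between 72 h and 24 h of CDDO-Me, 2 of the 37 genes were lower at 72 h and none passed as higher, 5.41% beside 1.02% of all tested genes (0.448% as higher, 0.568% as lower). SPOCK1 averaged 92.9 ± 1.69 CPM at 72 h and 197 ± 38.5 CPM at 24 h (SD, n = 3 each), 2.12-fold lower at 72 h (log2 -1.09 ± 0.11, adjusted p 3.02e-04). FN1 averaged 3926 ± 58.1 CPM at 72 h and 6580.4 ± 1166 CPM at 24 h, 1.68-fold lower (log2 -0.74 ± 0.16, adjusted p 0.0477). FN1 missed the threshold here when CDDO-Me 24 h replicate 1 or 2, any single 72 h library, or DMSO replicate 2 or 3 was left out (adjusted p up to 0.236). The 72 h libraries lay below all 24 h libraries for 12 of the 37 and above them for 2, EFEMP1 and ADAMTS1, where 21% of all tested genes were fully apart, 10.8% as higher and 10.2% as lower. At an unadjusted p under 0.05, 20 of the 37 passed, where 13.2% of all tested genes did. DESeq2 called 6 of the 37, adding THBS2, LOX and LAMB1 as lower and EFEMP1 as higher at 72 h, where it called 3.27% of all genes with an adjusted p. Of the 4 tested proteases, 3 had an adjusted p by DESeq2 in this comparison. Without CDDO-Me 24 h replicate 3, 26 of the 37 passed, 23 lower and 3 higher at 72 h, where 12% of all tested genes passed, 5.19% as higher and 6.84% as lower. The 3 higher were ADAMTS1 (1.10 ± 0.06, adjusted p 2.52e-09), THBS1 (0.27 ± 0.08, adjusted p 0.0313) and EFEMP1 (0.27 ± 0.08, adjusted p 0.0341). Among the 23 lower, LOXL4 (-1.84 ± 0.14, adjusted p 6.20e-08), SPOCK1 (-1.24 ± 0.06, adjusted p 4.60e-10), MMP2 (-0.99 ± 0.07, adjusted p 3.84e-08) and LAMA4 (-0.98 ± 0.15, adjusted p 8.55e-04) are given as examples chosen after their values were seen. SERPINH1, PLOD2, PLOD3, BGN, DCN, TNC, FBLN1, FBLN5, MMP3, MMP14 and TIMP2 had an adjusted p above 0.05 in that fit too.

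The other matrix genes, a list of 155 relatives, processing enzymes, proteases, proteoglycans and receptors, had 114 tested members. At 72 h 18 were lower and 8 higher than in DMSO (22.8%, beside 6.02% of all tested genes; median log2 fold change -0.08). Without CDDO-Me 24 h replicate 3, 32 were lower and 14 higher, where 12.9% of all passed. TGM2, transglutaminase 2, a cross-linker of fibronectin and other proteins, had 0.630, 0.796 and 1.17 CPM at 72 h, 7.86, 7.70 and 3.76 CPM at 24 h, and 13.0, 11.9 and 11.4 CPM in DMSO, a log2 fold change of -3.80 ± 0.31 at 72 h against DMSO (adjusted p 6.00e-06). Integrin receptors fell in 4 of 17, with ITGA5, the alpha chain of the fibronectin receptor (log2 -0.68 ± 0.12, adjusted p 0.00387), and ITGA3, of a laminin receptor (log2 -0.46 ± 0.09, adjusted p 0.00716; 0.0526 without CDDO-Me 72 h replicate 1). ITGA5 had 377, 395 and 383 CPM at 72 h, 575, 536 and 393 CPM at 24 h, and 691, 598 and 564 CPM in DMSO. Other proteases and inhibitors moved both ways, 7 of 30 lower and 4 higher: PLAT, tissue plasminogen activator (log2 -1.30 ± 0.19, adjusted p 0.00387), and ADAM19, a membrane sheddase (log2 -1.19 ± 0.14, adjusted p 3.99e-04), fell. SERPINE2, a serine protease inhibitor (log2 0.88 ± 0.10), and CTSL, the lysosomal protease cathepsin L (log2 1.13 ± 0.14), rose, with adjusted p of 7.55e-05 and 2.95e-04. Among proteoglycans the heparan sulfate carriers GPC1 and SDC4 moved apart. GPC1, glypican 1, had 589, 596 and 589.9 CPM at 72 h, 338, 314 and 502 CPM at 24 h, and 197, 162 and 163 CPM in DMSO (log2 1.76 ± 0.15 at 72 h, adjusted p 4.73e-05). SDC4, syndecan 4, had 142, 148 and 145 CPM at 72 h, 194, 189 and 207 CPM at 24 h, and 275, 278 and 241 CPM in DMSO (log2 -0.87 ± 0.08, adjusted p 9.62e-06). Of the 12 other basement membrane genes 2 fell, PXDN, peroxidasin (log2 -0.43 ± 0.11), and NTN4, netrin 4 (log2 -0.33 ± 0.08), with adjusted p of 0.0346 and 0.0279. In 19 other collagen processing enzymes PCOLCE2, an enhancer of procollagen processing, rose (log2 0.81 ± 0.14, adjusted p 0.00246) and the procollagen peptidase gene ADAMTS2 fell (log2 -0.54 ± 0.13, adjusted p 0.0219). In 14 other adhesive genes SPP1, osteopontin, rose (log2 2.89 ± 0.64, adjusted p 0.0397) and 3 fell, with MATN2, matrilin 2 (log2 -0.48 ± 0.08, adjusted p 0.00200). In 8 other elastic fibre genes EMILIN2 rose (log2 0.55 ± 0.12, adjusted p 0.0145). PXDN and SPP1 missed the threshold without any 1 of the 6 libraries at 72 h and in DMSO, and NTN4, ADAMTS2 and EMILIN2 without some of them (adjusted p up to 0.145, 0.129, 0.177, 0.119 and 0.0853, in that order). SPP1 also missed it with no filter on low counts (adjusted p 0.127), and PXDN with total counts in place of TMM (0.0545).

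At 24 h, 4 of the 114 were higher and 3 lower than in DMSO (6.14%, beside 2.15% of all tested genes). SERPINE2 (log2 0.94 ± 0.10), CTSL (log2 1.05 ± 0.14), GPC1 (log2 1.14 ± 0.15) and PCOLCE2 (log2 0.60 ± 0.14) were higher, and ADAM19 (log2 -0.73 ± 0.14), SDC4 (log2 -0.43 ± 0.08) and MMP24, a membrane-bound metalloprotease (log2 -0.57 ± 0.14), were lower, with adjusted p from 8.59e-05 for SERPINE2 to 0.0495 for MMP24. Without some single libraries the calls of PCOLCE2, ADAM19, SDC4 and MMP24 ended (adjusted p up to 0.183, 0.0613, 0.0517 and 0.247, in that order), and the call of MMP24 held in no fit that left out 1 library except that without CDDO-Me 24 h replicate 3; the call of ADAM19 ended also without CDDO-Me 24 h replicate 3 (0.0535). Without CDDO-Me 24 h replicate 3, 23 were higher and 7 lower, where 10.8% of all passed. Between 72 h and 24 h, 4 of the 114 were lower at 72 h and none passed as higher (3.51%, beside 1.02% of all): TGM2 (log2 -2.88 ± 0.31), SDC4 (log2 -0.44 ± 0.08), ITGA3 (log2 -0.48 ± 0.09) and ADAMTS6, a matrix protease (log2 -0.63 ± 0.14), with adjusted p from 4.39e-04 for TGM2 to 0.0413 for ADAMTS6. SDC4, ITGA3 and ADAMTS6 missed the threshold when any single 72 h library was left out (adjusted p up to 0.109, 0.162 and 0.222, in that order). Without CDDO-Me 24 h replicate 3, 40 were lower and 6 higher, where 12% of all passed. At an unadjusted p under 0.05, 31 of the 114 passed in that comparison, where 13.2% of all tested genes did.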

How the data were processed

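The 9 libraries hold polyadenylated RNA and were prepared by TruSeq RNA v2, per the labels' protocols, which does not keep strand. The deposited values are whole-number read counts per Ensembl gene, not normalized. The submitters' processing notes name STAR, SAMtools and Subread featureCounts with the hg38 and GRCh38 builds, while the sources used here do not give the annotation release or how multiply mapped reads were treated. Reads of genes with overlapping exons cannot be told apart without strand.

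From these counts, edgeR 4.0.16 in R 4.3.3 (TMM scaling, filterByExpr, robust quasi-likelihood test on all 9 libraries) tested 14965 genes in 3 comparisons with no covariate, and a gene was called at an adjusted p under 0.05 over all tested genes (Benjamini-Hochberg). The SE is the log2 fold change over the root of F. The code was tested on simulated data. CPM per kb divides by the counted gene length, and gene coordinates are those of the deposited table. All 39 genes are accounted for by role: every library's value is given for genes called in any comparison, and for others where a role needs it. Of the other matrix lists, up to 2 called genes with the smallest adjusted p in each direction and comparison are named. The genes and lists were chosen with earlier results of these data known. Start windows are from RefSeq, GRCh38.p14. Alternatives were other scalings, filters, DESeq2 1.42.0, limma-voom 3.58.1, the compared groups alone, a replicate block, and leaving out each library. No 2 columns held identical counts.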

Additional observations from a re-analysis of the deposited data

Results flagged for a closer look

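SPOCK1 and FN1 were lower after 72 h than after 24 h of CDDO-Me, and this difference between the times was itself tested with edgeR. For SPOCK1 the log2 difference of 72 h from 24 h was -1.09, with an adjusted p of 0.000302. For FN1 it was -0.74, with an adjusted p of 0.0477, and it missed the threshold when any 1 of 7 of the 9 libraries was left out (adjusted p up to 0.236). Neither gene had passed at 24 h against DMSO (adjusted p 0.365 for SPOCK1 and 0.803 for FN1). All 3 libraries at 72 h lay below all 3 at 24 h for both genes. The 24 h group has no vehicle of its own time here, so any difference in culture time cannot be told apart from treatment time in these values.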

How the results depend on the processing

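Of the 15 calls on the 37 genes, 12 held under all 20 alternatives and 3 were lost under some: EFEMP2 and LOXL2 at 72 h against DMSO, and FN1 at 72 h against 24 h, which also missed the threshold with total counts in place of TMM (adjusted p 0.0704). The fold change changed sign for LOXL4 at 24 h against DMSO with limma-voom (-0.29) and without CDDO-Me 24 h replicate 1 (-0.11) or 2 (-0.15), and for MMP2 at 24 h with the same alternatives (-0.019, -0.13 and -0.07). For THBS1 at 72 h against 24 h it changed sign with limma-voom (0.016), with sample weights (0.23), and without CDDO-Me 24 h replicate 3, alone (0.27) or with DMSO replicate 1 (0.27). With libraries left out these values ranged from -0.15 to 0.68 for LOXL4, from -0.13 to 0.46 for MMP2 and from -0.16 to 0.27 for THBS1. None of these 3 comparisons had passed. The cause was not tested.

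At 24 h against DMSO, the 2 calls among the 37 became 8 with no filter on low counts, 5 by DESeq2, 16 with sample weights and 23 without CDDO-Me 24 h replicate 3 and DMSO replicate 1. At 72 h against DMSO, the 11 became 24 with sample weights, 21 with only the 2 groups compared and 26 without both libraries. At 72 h against 24 h, the 2 became 1 with total counts, 10 with no filter, 6 by DESeq2, 30 with sample weights and 30 without both libraries. Over all genes in the same order of comparisons, no filter gave 662 at 24 h and 507 at 72 h against 24 h, and DESeq2 gave 546 and 394. Sample weights gave 1656, 2593 and 2918, and leaving out both libraries 3464, 2724 and 3471. The 2 groups alone gave 100 at 24 h and 1776 at 72 h, where the fit of 9 libraries gave 321, 901 and 152. For the 114 other matrix genes, where the fit gave 7, 26 and 4, no filter gave 17 at 24 h and 21 at 72 h against 24 h, DESeq2 14 and 15, sample weights 33, 46 and 55, both libraries left out 55, 53 and 68, and the 2 groups alone 3 and 42 against DMSO. Leaving out 1 library at a time gave 2 to 12, 9 to 21 and 1 to 26 calls among the 37, 134 to 1657, 401 to 1972 and 32 to 1843 over all genes, and 3 to 30, 12 to 46 and 1 to 46 among the other matrix genes.

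The labels do not say whether replicate numbers shared between groups mark paired libraries, and the values do not settle it. Correlations of 9 same-number pairs were weak, from -0.02 to 0.0963, with 0 over 0.1. Yet 6 of 9 libraries correlated best with their own number. Over all genes the replicate block gave 358 calls at 24 h and 963 at 72 h against DMSO, and 219 at 72 h against 24 h. Without the block these were 321, 901 and 152. With the replicate block, the other matrix genes called at 72 h against 24 h became 7, the calls of SPP1 at 72 h (adjusted p 0.0541) and MMP24 at 24 h (0.0557) against DMSO were lost, FBLN2 (0.0343) and BGN (0.0465) passed as lower at 72 h against DMSO and LAMB1 (0.0427) as lower at 72 h against 24 h, and no count among the 37 moved by over 1.5 times. ELN and MMP1, at 0 to 4 counts, and MMP3, at 5 to 52 counts, had few reads, and whether depth limits them was not tested.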
